A study of Homo sapiens with 9 samples.

Results

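The genes described here encode the proteins of the mitochondrial ribosome. They were taken as every gene row whose symbol is MRPL (large subunit) or MRPS (small subunit), then digits and at most one capital letter. Of 60325 gene rows, 78 had such a symbol, and the 76 with 10 or more counts in at least 3 libraries were used, 48 MRPL and 28 MRPS. All 76 were among the 16796 genes tested. The rule used symbols and counts per library and did not compare groups. A gene can still meet it through the groups where it is high, and MRPS28 met it without any control library. MRPL53, with 0 counts in all 9 libraries, and MRPS24, with 0 to 3 counts per library, were left out.

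The RNA came from LAPC4, a line of prostate epithelial cancer cells, at day 30. The study had 3 groups of 3 libraries. The control cells have the title NT. The second group, titled KD4, carries the label UGT2B28 knockdown, and puromycin at 3 ug/mL is given as the antibiotic for the knockdown. The rescue cells, titled KD4OE, carry UGT2B28 overexpression in the knockdown background, and G418 at 1 mg/mL is given for them, so the knockdown is shared by both groups that are not controls. No drug is named for the control cells, and drug selection and genotype cannot be told apart. UGT2B28 is an enzyme that joins glucuronic acid to steroids such as androgens. Nothing in the labels says that the replicates came from separate cultures. The spread that the p-values measure may therefore be technical.

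Mitochondria keep a ribosome of their own, which translates the few mRNAs of the mitochondrial genome into core subunits of the respiratory chain and of ATP synthase. Its rRNAs, MT-RNR1 of the small subunit and MT-RNR2 of the large subunit, are transcribed inside the organelle, whereas all of its proteins are encoded in the nucleus, translated in the cytosol and imported. Many of these proteins have a bacterial counterpart, and the others are particular to mitochondria. Symbols do not always follow the structure: MRPS18A and MRPS30 sit in the large subunit, and MRPS36 is known as a subunit of the 2-oxoglutarate dehydrogenase complex. By place in the particle the 76 genes comprise 50 large-subunit and 25 small-subunit proteins and MRPS36.

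The libraries held 8132206 to 14185252 counts on genes. UGT2B28 had 44, 50 and 76 counts in control, 63, 70 and 28 in knockdown-labelled and 1139, 1062 and 539 in rescue libraries. Its RNA was thus not lower in all libraries labelled knockdown, with a log2 fold change of -0.045 against control (edgeR quasi-likelihood test, Benjamini-Hochberg adjusted p = 0.957), and that group is called knockdown-labelled throughout. The 8 markers of prostate luminal cells were all detected, at a summed level of 3250 to 5475 CPM (counts per 1000000) over the 9 libraries, while the 4 leukocyte markers summed to at most 10.4 CPM, with PTPRC and LYZ at 0, and the 4 endothelial markers to at most 5.03 CPM. The 5 fibroblast markers, none of them at 0, summed to 20.2 to 69.1 CPM in control, 42.5 to 48.3 in knockdown-labelled and 48.6 to 126 in rescue libraries, and their part in the results was not tested. The knockdown-labelled group was not uniform. Mitochondrially encoded RNA took 15.1% and 15.8% of counts in its replicates 1 and 2 and 10.2% in replicate 3, against 7.62% to 8.57% in the control libraries and 5.79% to 7.90% in the rescue libraries. Results below are therefore also given for parts of that group.

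In control cells the mRNAs of the mitochondrial ribosome spanned an 824-fold range of level per kb of exon, with a median of 19.3 CPM per kb and quartiles at 10.1 and 36.2. The MRPL median was 20.4 and the MRPS median 17.8 CPM per kb. The highest levels belonged to MRPS34 at 159 ± 4.67 CPM per kb (SD, n = 3) and MRPS26 at 132 ± 9.08, both small-subunit proteins without a bacterial counterpart. They were followed by the large-subunit genes MRPL41 at 99.4 ± 6.09, MRPL24 at 84.2 ± 1.21 and MRPL18 at 81.6 ± 4.20 CPM per kb. MRPL24 is a protein of the region around the peptide exit tunnel and MRPL18 one of the central protuberance. MRPL24 and MRPL18 did not differ beyond their spread, and each of the 3 genes above them stood apart from the next by more than 1 SD.

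The lowest levels per kb belonged to MRPS28 at 0.19 ± 0.080, MRPL46 at 0.43 ± 0.043, MRPL2 at 0.75 ± 0.22, MRPL38 at 1.79 ± 0.41 and MRPS17 at 3.52 ± 0.53 CPM per kb. All 5 share over 10% of their exon bases with another annotated gene, against 24 of the 76 genes in all and none of the 5 highest. The shared part was 35.8% of MRPS28, 11.3% of MRPL46, 37.5% of MRPL38 and 27.0% of MRPS17, on the same strand, and 14.7% of MRPL2, on the strand opposite to its neighbour KLC4. MRPL53 and MRPS24, the genes left out, share 45.2% and 23.2% of their exon bases with CCDC142 and URGCP-MRPS24. The part of shared exons in these low values was not tested, and these levels should be read as counts assigned to the gene row.

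**Figure D1:**
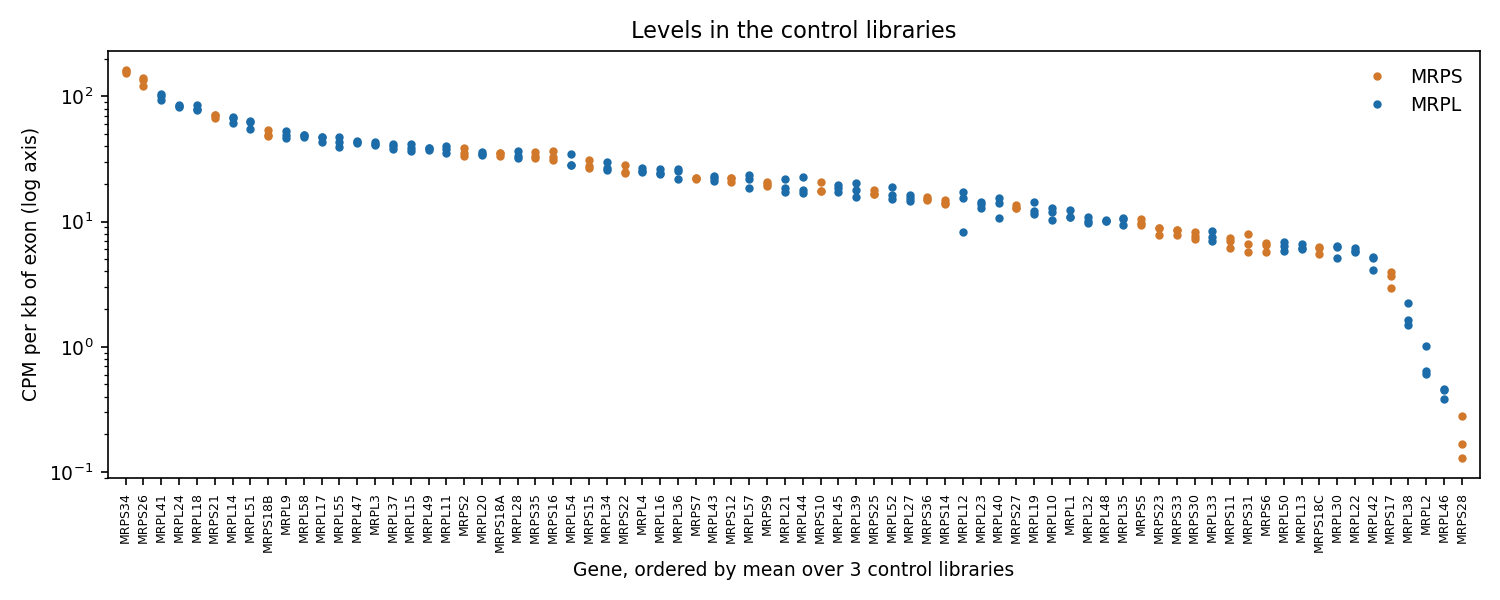
Level of each of the 76 mRNAs in the control libraries, in CPM per kb of exon on a log axis, with 1 point per library and genes ordered by their mean. The levels run from 159 CPM per kb for MRPS34 to 0.19 for MRPS28, and the points of the 3 libraries lie close together except for the lowest genes.

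Most of the 76 mRNAs lay above the control mean in knockdown-labelled replicates 1 and 2 and below it in rescue replicates 1 and 2. Replicate 3 of these groups was more mixed, with 29 and 28 of the 76 above that mean. The median log2 difference from the control mean was 0.038, -0.0031 and -0.036 in control libraries. It was 0.50 and 0.57 in knockdown-labelled replicates 1 and 2 and -0.13 in replicate 3. In rescue it was -0.23, -0.19 and -0.066. Over all genes tested the same medians lay between -0.0027 and 0.026 in the 9 libraries.

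Counted gene by gene, 65 of the 76 mRNAs in knockdown-labelled replicate 1 and 62 in replicate 2 lay above all 3 control libraries, against 37.7% and 37.5% of all genes tested. In replicate 3, 27 of the 76 (35.5%) lay above and 41 (53.9%) below all controls, against 36.7% and 35.1% of all genes tested. In 33 of the 76, or 43.4%, replicates 1 and 2 were above and replicate 3 below every control, against 12.6% of all genes tested. In rescue replicates 1, 2 and 3, 63, 57 and 33 of the 76 lay below every control, against 31.3%, 33.2% and 32.8% of all genes. The median coefficient of variation of the 76 was 6.58% in the control group, 25.2% in the knockdown-labelled group and 9.33% in the rescue group, beside 11.0%, 24.3% and 12.6% over all genes tested. Summed over the 76, the level was 4576 ± 72.0 CPM in control libraries, 5932 ± 1587 in knockdown-labelled libraries and 4100 ± 281 in rescue libraries (SD, n = 3 each).

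**Figure D2:**
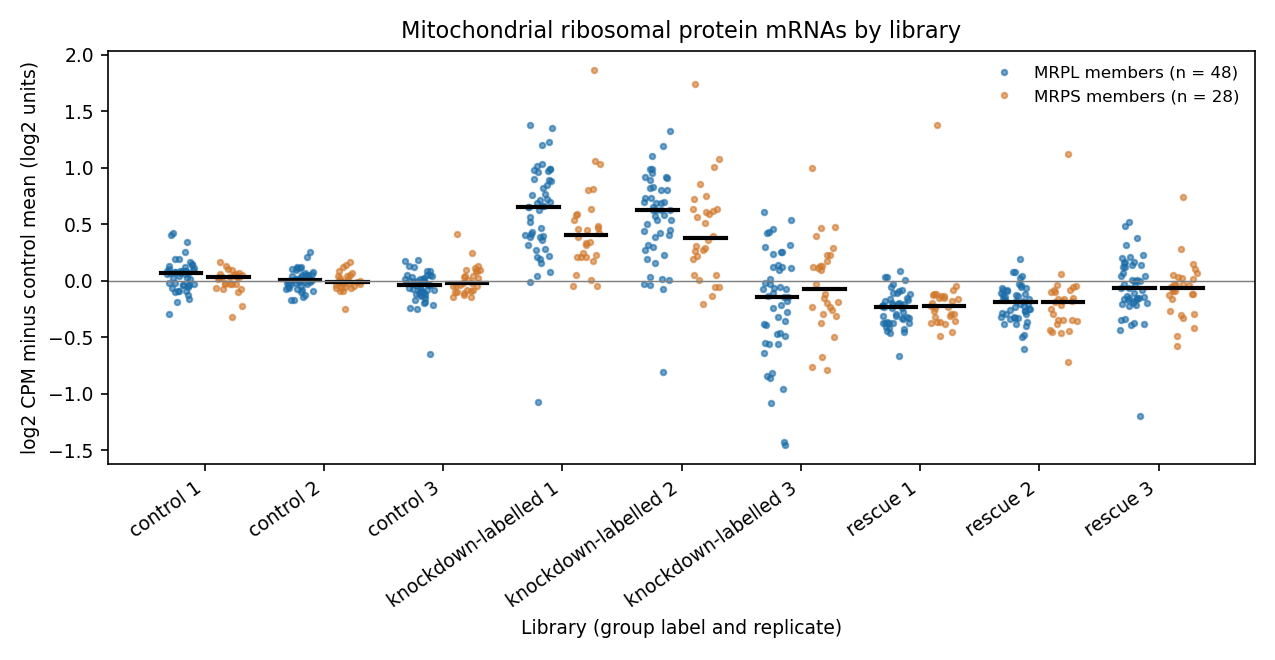
Log2 CPM minus the control mean (log2 units) for each MRPL gene (n = 48, blue) and MRPS gene (n = 28, orange) in the 9 libraries, with black bars at the medians. Knockdown-labelled replicates 1 and 2 are high, with medians over all 76 genes of 0.50 and 0.57, replicate 3 is spread around -0.13, and the 3 rescue libraries lie between -0.23 and -0.066.

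The large and small subunits differed in size of movement in knockdown-labelled replicates 1 and 2 and little elsewhere. The MRPL median was 0.66 and 0.62 in these libraries and the MRPS median 0.40 and 0.37, a gap of 0.25 log2 units in both. In replicate 3 the gap was -0.069. In control libraries it lay between -0.020 and 0.036, and in rescue libraries between -0.0048 and 0.00059. Assigning proteins by place in the particle left the gap in replicates 1 and 2 at 0.23 and 0.25. These are descriptions of gene groups, whose members are not replicates.

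In rescue cells, which overexpress UGT2B28, mitochondrial ribosomal protein mRNAs were lower than in knockdown-labelled cells. Of the 76, 25 fell and none rose at an adjusted p under 0.05 by edgeR, and the estimate was below 0 for 74. The members that fell are 32.9% of the 76. Over all genes tested, 5.39% fell and 4.44% rose, 9.83% in all. The median log2 fold change of the 76 was -0.56, a decrease of 32.1%, beside -0.0023 over all genes. The groups did not overlap, with rescue lower, for 35 of the 76, or 46.1%, against 14% of all genes tested, and all 25 genes that fell were among them.

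Genes of both subunits fell. Of 48 MRPL genes 16 fell, 46 were below 0 and the median was -0.60. Of 28 MRPS genes 9 fell, all 28 were below 0 and the median was -0.48. The split of calls depended on the fit. With no filter on low counts 35 MRPL and 12 MRPS genes fell, against 4.07% of all genes. By place in the particle, 17 of 50 large-subunit genes and 8 of 25 small-subunit genes fell, with medians of -0.60 and -0.48. Genes with a bacterial counterpart and genes without one had the same median of -0.56, and 16 of 45 and 9 of 31 of them fell. Within the large subunit, 2 of 6 genes of the exit tunnel rim (median -0.73), 1 of 7 of the central protuberance (median -0.64) and 1 of 4 of the factor-binding stalk (median -0.58) fell.

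**Figure D3:**
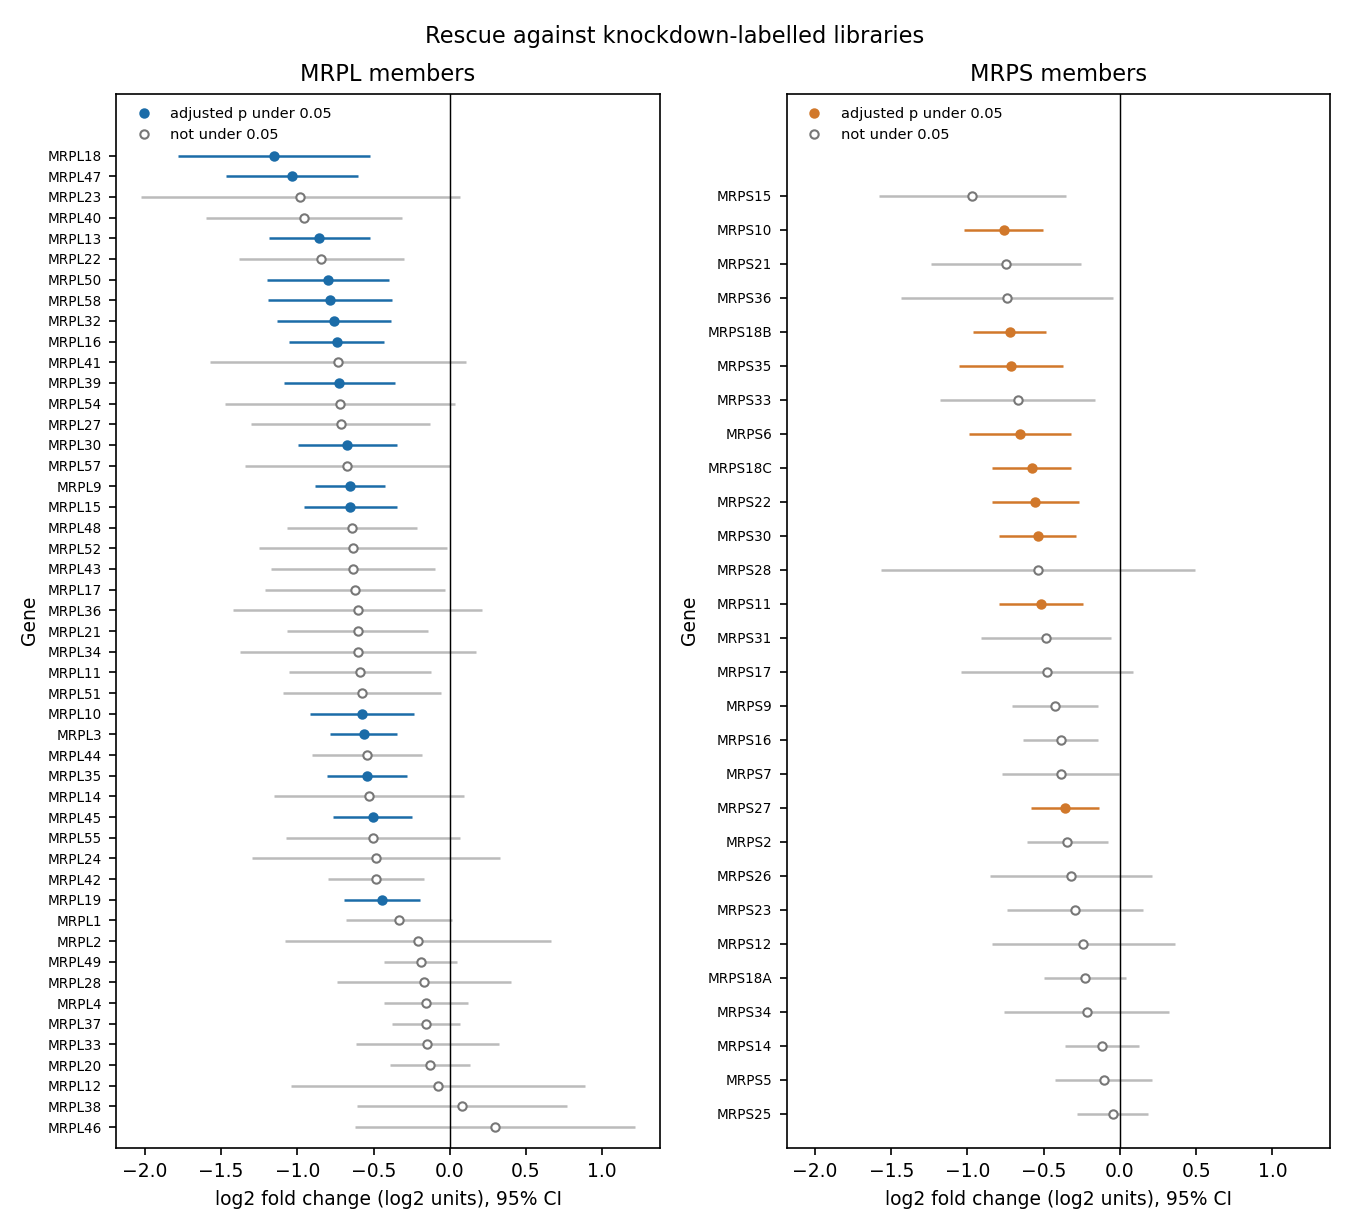
Log2 fold change (log2 units) of each gene in rescue against knockdown-labelled libraries with its 95% confidence interval, MRPL genes on the left and MRPS genes on the right, filled where the adjusted p was under 0.05. Nearly all points lie left of 0, and the 25 filled points run from -1.15 for MRPL18 to -0.36 for MRPS27.

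The number of falling genes depended on the libraries and on the fit. It was 64 without knockdown-labelled replicate 3, where 20.4% of all genes fell. It was 10 without replicate 1 of that group, 3 without its replicate 2, 16 without control replicate 2, and 1, 4 and 3 without rescue replicate 1, 2 or 3, where between 0.249% and 2.44% of all genes fell. It was 6 when libraries were scaled by their totals alone, where 1.37% of all genes fell, and 0 when only the groups compared were fitted, where 0.0183% fell. Against knockdown-labelled replicate 3 alone, assumed to vary like the other groups, 15 fell and 12 rose, against 6.84% and 12.7% of all genes. The median was then -0.022, with 36 of the 76 estimates above 0, and without that replicate it was -0.70.

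Among the genes that fell, 3 had the smallest p-values and held best as libraries were left out. MRPS10, a small-subunit protein of the head with a bacterial counterpart, was at 37.4, 44.1 and 36.8 CPM in control, at 61.1, 59.1 and 54.7 in knockdown-labelled and at 36.2, 34.4 and 32.5 in rescue libraries. The knockdown-labelled libraries were all above the others, and each rescue library was below each control. Its log2 fold change in rescue against knockdown-labelled cells was -0.76 ± 0.118 (SE, n = 3 per group, edgeR adjusted p = 0.00909), and it passed in 9 of 9 fits that each left out 1 library. MRPS18B, a small-subunit protein, was at 93.5, 91.0 and 102 CPM in control, at 119, 122 and 104 in knockdown-labelled and at 67.6, 70.1 and 71.3 in rescue libraries. It fell by 0.72 ± 0.109 on the log2 scale (adjusted p = 0.00866 by edgeR), and all rescue libraries were below all the others. MRPL9, a large-subunit protein with a bacterial counterpart, was at 96.4, 88.6 and 84.8 CPM in control, at 118, 109 and 106 in knockdown-labelled and at 69.7, 71.9 and 69.2 in rescue libraries. It fell by 0.65 ± 0.105 (adjusted p = 0.00909 by edgeR), the 3 groups did not overlap, and 33.2% of its exon bases are shared with genes on the opposite strand. MRPS18B and MRPL9 passed in 8 of the 9 fits.

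The largest fall was that of MRPL18, which showed another pattern. It was at 119, 110 and 108 CPM in control, at 291, 280 and 110 in knockdown-labelled and at 106, 91.9 and 109 in rescue libraries. Replicates 1 and 2 of the knockdown-labelled group stood far above all other libraries, and replicate 3 lay within the control range. Its log2 fold change was -1.15 ± 0.286 (edgeR adjusted p = 0.0332), and it passed in 1 of the 9 fits, so this fall rests on replicates 1 and 2.

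The DNA just upstream of these 4 genes is printed below. Of the 9 fits that each left out 1 library, MRPS10 passed in 9, MRPL9 and MRPS18B in 8 and MRPL18 in 1. Each sequence is the 100 bases before the RefSeq start site (GRCh38.p14), 5′ to 3′ on the strand of the gene. Capitals mark a match to the core letters of the motifs of ETS factors (CCGGAAG), of YY1 (AAGATGG) or of NRF1 (GCGCATG) on either strand. These factors are known for binding many promoters of nuclear genes for mitochondrial proteins. The printed bases end at the start site, so matches after it are not shown. In the 50 bases after the start the YY1 core was found in MRPS10 and MRPS18B and not in MRPL9 or MRPL18. The lines are MRPS10 at chr6:42217862-42217961 on the minus strand, MRPL9 at chr1:151763497-151763596 on the minus strand, MRPS18B at chr6:30617740-30617839 on the plus strand and MRPL18 at chr6:159789712-159789811 on the plus strand.
MRPS10: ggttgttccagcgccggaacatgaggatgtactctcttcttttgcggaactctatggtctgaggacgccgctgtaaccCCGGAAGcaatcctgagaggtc
MRPL9: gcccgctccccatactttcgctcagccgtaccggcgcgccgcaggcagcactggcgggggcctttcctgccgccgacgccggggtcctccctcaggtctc
MRPS18B: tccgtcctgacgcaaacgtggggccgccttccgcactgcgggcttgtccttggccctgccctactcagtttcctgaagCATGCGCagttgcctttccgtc
MRPL18: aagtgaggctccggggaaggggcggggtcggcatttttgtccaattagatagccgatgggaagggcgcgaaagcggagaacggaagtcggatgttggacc
In windows of 250 bases before to 50 after the start, 67 of the 76 genes had a RefSeq promoter. The ETS core was found in 40.3% of them, in 18.8% of the promoters of tested genes and in 10.6% of all promoters. The YY1 core was in 32.8% of the members' promoters, in 7.65% of those of tested genes and in 6.04% of all. The NRF1 letters were in 10.4%, 7.35% and 4.58%. The motifs CCAAT and TATAAA were also searched. CCAAT was in 32.8% of the members' promoters, 36.7% of those of tested genes and 35.6% of all, and TATAAA in 2.99%, 6.29% and 12.1%. The ETS core was in 38.1% of the 21 promoters of genes that fell and in 41.3% of the 46 of genes that did not pass, the YY1 core in 38.1% and 30.4%, and the NRF1 letters in 14.3% and 8.70%. A match is a string of letters and not a shown binding site.

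Among the other large-subunit genes that fell, MRPL3, a protein near the peptidyl transferase centre, was at 111, 118 and 114 CPM in control, 154, 151 and 143 in knockdown-labelled and 99.0, 101 and 102 in rescue libraries, so that the 3 groups did not overlap, and it fell by 0.56 (edgeR adjusted p = 0.0116). MRPL13, which has a bacterial counterpart, was at 25.4, 27.9 and 26.0 CPM, then 42.8, 42.5 and 31.6, then 21.5, 23.5 and 19.5, with a log2 fold change of -0.86 (edgeR adjusted p = 0.0110). In both genes knockdown-labelled replicate 3 was the lowest of its group and still above every control. MRPL47, of the exit tunnel rim, was at 60.4, 59.8 and 58.3 CPM in control, 117, 118 and 64.6 in knockdown-labelled and 49.1, 45.0 and 51.9 in rescue libraries, with a log2 fold change of -1.04 (95% confidence interval -1.47 to -0.60, edgeR adjusted p = 0.0149). MRPL16, close to the path of tRNA, was at 59.9, 55.0 and 55.7 CPM, then 89.6, 77.5 and 61.3, then 43.8, 44.0 and 48.9, with a log2 fold change of -0.74 (edgeR adjusted p = 0.0149). MRPL15 went from 43.9, 50.1 and 46.6 CPM in control to 73.8, 66.5 and 51.4 in knockdown-labelled and 40.8, 40.4 and 40.6 in rescue libraries (log2 fold change -0.65 between the latter groups, edgeR adjusted p = 0.0201). In all 3, replicate 3 lay just above the highest control and the other knockdown-labelled libraries well above it.

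Of the MRPS genes, MRPS35, a small-subunit protein without a bacterial counterpart, was at 64.2, 66.5 and 71.6 CPM in control, 102, 111 and 73.2 in knockdown-labelled and 52.3, 60.3 and 62.2 in rescue libraries, with a log2 fold change of -0.71 (edgeR adjusted p = 0.0213). Its replicate 3 was again close to control. MRPS6, with a bacterial counterpart, was at 29.2, 28.1 and 24.6 CPM, then 37.7, 41.8 and 35.8, then 24.8, 19.9 and 28.5 (log2 fold change -0.65, edgeR adjusted p = 0.0266), and here all 3 knockdown-labelled libraries were above all others. MRPS22, a mitochondria-specific protein whose inherited variants cause respiratory chain deficiency, was at 133, 134 and 153 CPM, then 203, 216 and 164, then 128, 132 and 137 (log2 fold change -0.56, edgeR adjusted p = 0.0270). MRPS30, a large-subunit protein despite its symbol, was at 51.0, 47.5 and 45.2 CPM, then 60.6, 70.7 and 66.2, then 45.0, 42.1 and 48.8 (log2 fold change -0.54, edgeR adjusted p = 0.0200). In it, replicate 3 lay between replicates 1 and 2 and well above the controls.

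The 3 MRPS18 paralogs descend from one bacterial protein, and MRPS18B and MRPS18C belong to the small subunit while MRPS18A belongs to the large one. MRPS18C was at 30.3, 30.0 and 27.1 CPM in control, 34.1, 33.8 and 32.8 in knockdown-labelled and 21.2, 22.7 and 23.4 in rescue libraries and fell by 0.58 between the latter groups (edgeR adjusted p = 0.0176). MRPS18A was at 45.2, 43.2 and 45.3 CPM, then 52.9, 44.7 and 41.1, then 40.0, 37.4 and 40.8, a log2 fold change of -0.23 that did not pass (95% confidence interval -0.49 to 0.039, edgeR adjusted p = 0.246). The intervals of MRPS18A and MRPS18B, from -0.96 to -0.48 for the latter, overlap slightly, and the difference between the paralogs was not tested. MRPS18A and MRPS18C share 47.0% and 40.2% of their exon bases with opposite-strand genes, RSPH9 and ABRAXAS1.

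**Figure D4:**
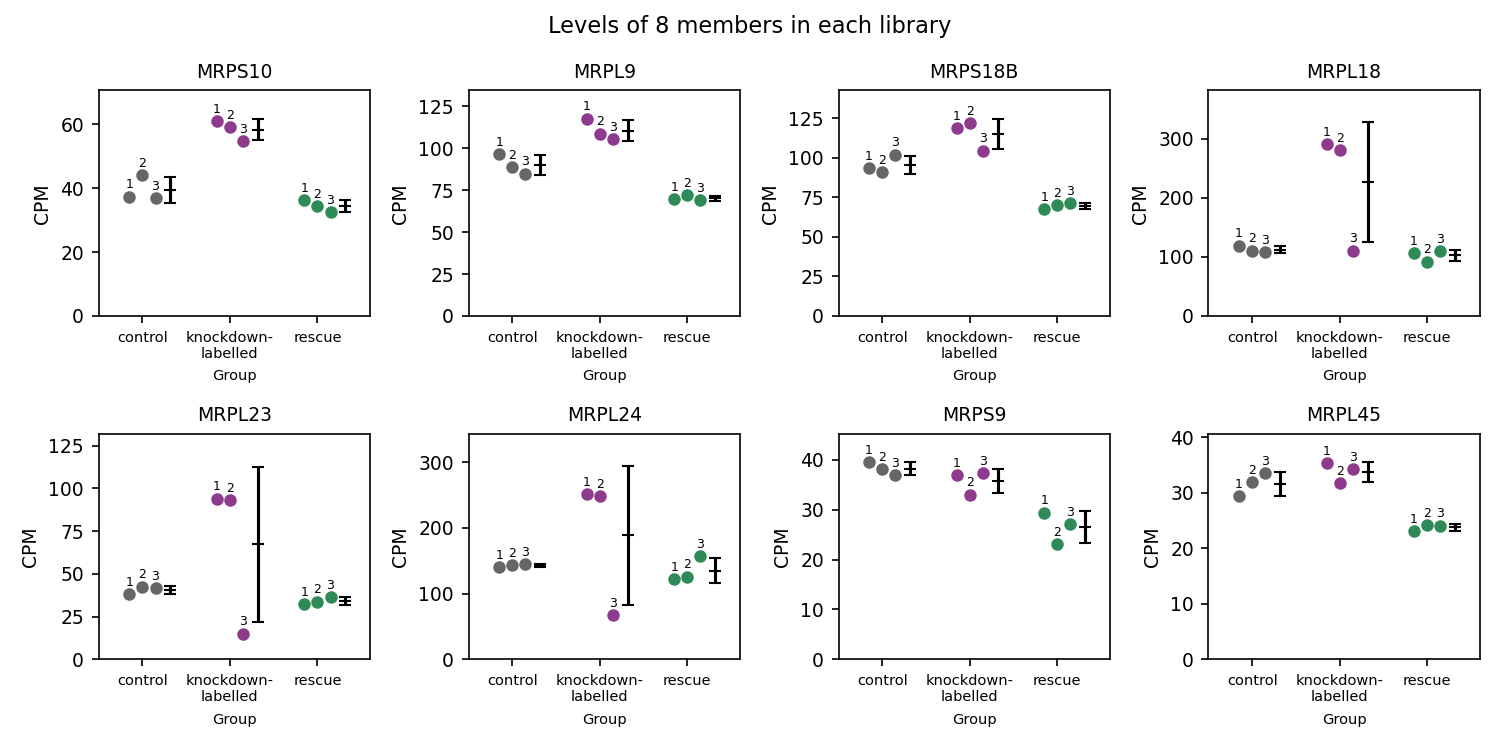
CPM of 8 genes in each library (numbered points are replicates, bars the mean ± SD of 3 libraries), on axes that start at 0. MRPS10, MRPL9 and MRPS18B are highest in the 3 knockdown-labelled libraries, MRPL18, MRPL23 and MRPL24 are high in replicates 1 and 2 of that group but not in replicate 3, and MRPS9 and MRPL45 are lowest in the rescue libraries.

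Some genes did not pass although their mean difference was large. MRPL23, a protein at the exit tunnel, was at 38.1, 42.6 and 41.5 CPM in control, 93.9, 93.3 and 15.0 in knockdown-labelled and 32.2, 33.8 and 36.5 in rescue libraries. Its knockdown-labelled libraries lay on either side of all others, and its log2 fold change of -0.98 had an edgeR adjusted p of 0.203. MRPS36 behaved likewise, at 22.8, 23.3 and 24.0 CPM, then 48.0, 47.1 and 16.4, then 20.0, 20.9 and 25.9 (log2 fold change -0.74, edgeR adjusted p = 0.154). MRPL46 and MRPL38, both among the lowest genes, were the only members with an estimate above 0, at 0.30 (edgeR adjusted p = 0.687) and 0.079 (0.898). MRPS25, a small-subunit protein, was at 96.1, 89.6 and 88.8 CPM in control, 88.4, 87.9 and 80.0 in knockdown-labelled and 76.0, 85.2 and 86.7 in rescue libraries. All its knockdown-labelled and rescue libraries were thus below every control. Between these groups it was nearly level, with a log2 fold change of -0.049 in rescue against knockdown-labelled cells.

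Knockdown-labelled against control cells gave no call among the 76 genes, although 68 estimates were above 0. The median log2 fold change was 0.41, an increase of 32.4%, beside 0.015 over all genes tested. The MRPL median was 0.43 and the MRPS median 0.28. Of all genes tested 0.00595% passed in edgeR. At an unadjusted p under 0.05 by edgeR 33 of the 76 (43.4%) were counted, against 19.1% of all genes. DESeq2 called 9, all higher, and called 3.41% of all genes higher. In 22 of the 76 all knockdown-labelled libraries were above all controls, and in 2 all were below, against 11% and 10.2% of all genes tested.

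The size of the increase followed the libraries. Without replicate 3 the median was 0.55 and 53 of the 76 rose, against 18.1% of all genes. With only replicate 3 in the group the median was -0.16, 12 fell and 1, MRPS30, rose, against 9.07% and 2.34% of all genes. With all libraries, the MRPS genes with the smallest p-values were MRPS10, with a log2 fold change of 0.56 (edgeR adjusted p = 0.0781), MRPS30, with 0.46 (0.0967), and MRPS22, with 0.47 (0.106). The MRPL genes with the smallest p-values were MRPL3, with 0.38 (edgeR adjusted p = 0.0993), MRPL47, with 0.75 (0.0993), and MRPL13, with 0.56 (0.101). In these 6 genes every knockdown-labelled library was above every control. The largest estimates belonged to MRPS28, with 1.95 (adjusted p = 0.109 by edgeR) on only 2, 3 and 5 counts in control and 13, 18 and 8 in knockdown-labelled libraries, to MRPL18, with 1.02 (0.110), and to MRPL41, with 0.84 (0.263). MRPL41, a mitochondria-specific large-subunit protein, was at 133, 126 and 117 CPM in control, 320 and 269 in replicates 1 and 2 and 84.9 in replicate 3. The lowest estimate was that of MRPL46, -0.82 (0.310), at 2.91, 2.96 and 2.46 CPM in control and 1.21, 1.50 and 1.96 in knockdown-labelled libraries, where all were lower.

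In knockdown-labelled replicate 3 the position of a gene followed its base composition. Across the 76 genes, which share one library, Spearman's rho between the log2 difference from the control mean and the GC content of the longest transcript was -0.63 in replicate 3, beside 0.086 and -0.042 in replicates 1 and 2. It was -0.66 over MRPL genes and -0.57 over MRPS genes, and -0.54 over the 16177 tested genes with a gene model, so the relation was not limited to these genes. In rescue replicates 1, 2 and 3 rho over the 76 genes was 0.042, -0.13 and 0.28. The 38 genes with lower GC content had a median of 0.12 in replicate 3 and the 38 with higher GC content one of -0.31. In replicate 1 the same groups of genes had medians of 0.47 and 0.62, and in replicate 2 of 0.58 and 0.54. The genes that fell in rescue against knockdown-labelled cells had a median GC content of 42.1% and the others one of 50.4%, and 18 of the 25 were among the 38 with lower GC content. Across the 76 genes, rho with exon length was -0.32, -0.20 and 0.23 in the 3 libraries.

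The genes lowest in replicate 3 were chosen after their values were seen. MRPL23 was at 15.0 CPM there, as given above. MRPL24 was at 141, 143 and 145 CPM in control and 252, 248 and 67.1 in knockdown-labelled libraries. MRPL12, a protein of the stalk that is also known to bind the mitochondrial RNA polymerase, was at 17.8, 16.0 and 8.51 CPM in control and 17.4, 19.6 and 4.79 in knockdown-labelled libraries. With only replicate 3 in the group, these 3 genes were lower than control by log2 fold changes of -1.47, -1.11 and -1.58. MRPL12 shares 68.2% of its exon bases with another gene on its strand. The part of base composition in these values was not tested.

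**Figure D5:**
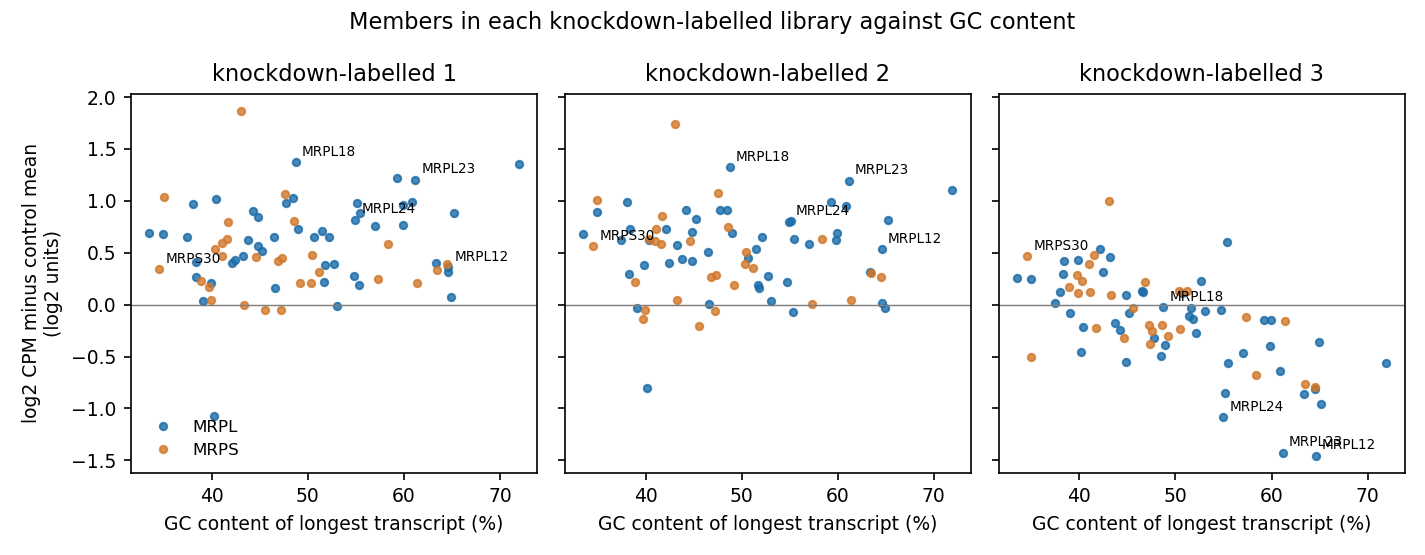
Log2 CPM minus the control mean (log2 units) of each gene against the GC content of its longest transcript (%), 1 panel per knockdown-labelled library, MRPL blue and MRPS orange. Points slope downward in replicate 3 (Spearman's rho -0.63, n = 76 genes) and not in replicates 1 and 2 (0.086 and -0.042).

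The rRNAs of the mitochondrial ribosome separated the same libraries. MT-RNR2 was at 10222, 10554 and 10010 CPM in control, 32873, 33518 and 9948 in knockdown-labelled and 9405, 8743 and 11285 in rescue libraries, so that knockdown-labelled replicates 1 and 2 alone were high. MT-RNR1 was at 1954, 1992 and 2057 CPM, then 6375, 6625 and 1637, then 1745, 1689 and 2296. In rescue against knockdown-labelled cells MT-RNR2 fell by 1.37 (edgeR adjusted p = 0.0471), and MT-RNR1 had a log2 fold change of -1.35 (0.0596). Both rRNAs were thus high in the libraries where the median of the 76 mRNAs was high. Single mRNAs did not all follow: in replicate 3, where neither rRNA was high, 27 of the 76 lay above and 41 below all controls. The part of mitochondrially encoded RNA in the result was not tested.

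Rescue cells lay slightly below control cells. None of the 76 genes passed, while 67 estimates were below 0 and the median log2 fold change was -0.17, a decrease of 11.0%, beside -0.0066 over all genes. Of all genes tested 0.149% passed, 0.143% higher and 0.00595% lower. At an unadjusted p under 0.05 by edgeR 11 of the 76 (14.5%) were counted, against 10.5% of all genes. DESeq2 called 2, both lower, and called 0.5% of all genes lower. Without knockdown-labelled replicate 3, 11 fell, against 2.86% of all genes. That library is in neither group compared, but the filter (17286 genes tested), the scaling and the shared spread were set again without it. When only rescue and control libraries were fitted 6 fell, against 1.95% of all genes. In 29 of the 76, or 38.2%, all rescue libraries were below all controls, against 13.6% of all genes, and in 1 they were above, against 12.8%. The MRPL and MRPS medians, -0.17 and -0.18, were nearly the same. This comparison shares its rescue libraries with rescue against knockdown-labelled cells and its control libraries with knockdown-labelled against control cells, and is not independent of either.

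MRPS9, a small-subunit protein with a bacterial counterpart, had the smallest p-value among the small-subunit genes apart from MRPS18B. It was at 39.5, 38.1 and 36.9 CPM in control, 36.9, 33.0 and 37.3 in knockdown-labelled and 29.4, 23.1 and 27.1 in rescue libraries, so the rescue libraries were below all others, and its log2 fold change against control was -0.52 ± 0.127 (SE, n = 3 per group, edgeR adjusted p = 0.151). MRPL45, which sits at the tunnel exit and anchors the ribosome to the inner membrane, was at 29.3, 31.9 and 33.5 CPM, then 35.3, 31.7 and 34.3, then 23.1, 24.1 and 24.0 (log2 fold change -0.41, edgeR adjusted p = 0.221). In both genes control and knockdown-labelled libraries overlapped. Against knockdown-labelled cells MRPL45 fell by 0.51 (edgeR adjusted p = 0.0264). MRPL10, of the stalk, was at 33.2, 28.6 and 35.3 CPM in control and 23.5, 23.1 and 25.4 in rescue libraries (-0.43, edgeR adjusted p = 0.349), and it fell by 0.58 against knockdown-labelled cells (0.0411). MRPS18B, MRPL9 and MRPS18C, whose values are above, had log2 fold changes of -0.45, -0.36 and -0.38 against control. The highest estimates were those of MRPS28 (1.41, edgeR adjusted p = 0.387, on at most 18 counts per library) and MRPL33 (0.18, 0.842). The rank of MRPS28 is again in part set by the count rule, which no control library met for it.

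Other genes of mitochondrial gene expression had medians from -0.32 to -0.25 in rescue against knockdown-labelled cells. Among 25 tested assembly factors of the mitochondrial ribosome, 3 (12%) fell and none rose in this comparison, with a median log2 fold change of -0.25. Over all genes tested 5.39% fell. MTERF3, which takes part in the assembly of the large subunit, fell by 0.76 (edgeR adjusted p = 0.0173), ERAL1, a chaperone of the small-subunit rRNA, by 0.42 (0.0274) and TFB1M, which methylates that rRNA, by 0.66 (0.0425). Of 14 translation factors 3 (21.4%) fell, with a list median of -0.26. MRRF, the ribosome recycling factor, was at 47.7, 52.8 and 52.6 CPM in control, 63.7, 60.6 and 64.2 in knockdown-labelled and 47.9, 47.0 and 48.0 in rescue libraries, with replicate 3 as high as the others of its group, and fell by 0.40 (edgeR adjusted p = 0.0349). MTRES1 fell by 0.80 (0.0238) and MTIF3, an initiation factor, by 1.03 (0.0468). Of 16 transcription and RNA factors 3 (18.8%) fell, with a list median of -0.29. They were SLIRP, which stabilises mitochondrial mRNA (-0.83, edgeR adjusted p = 0.0149), TEFM, an elongation factor (-0.69, 0.0162), and MTERF1 (-0.84, 0.0332). Of 5 mitochondrial ribosomal proteins with other symbols none passed, at a median of -0.32. In the other 2 comparisons no gene of these lists passed, with list medians from 0.022 to 0.20 in knockdown-labelled and from -0.17 to -0.12 in rescue cells against control.

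Gene rows that lie on shared or copied sequence are uncertain. The 24 genes that share over 10% of their exon bases with another gene had a median of -0.29 in rescue against knockdown-labelled cells, and 3 of them, MRPL9, MRPL30 and MRPS18C, fell. The 52 others had a median of -0.63 and 22 fell. There were 79 gene rows for pseudogenes named after a member, and their counts came to 0.185% to 0.305% of those of the 76 genes per library. Reads of MRPL45 may be split with its copy MRPL45P2, which held 700 counts in all 9 libraries.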

How the data were processed

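The deposited files hold whole-number read counts per gene for 9 libraries of total RNA, which the authors did not normalize. Per the submitters' processing notes, the tools were FastQC, cutadapt, STAR and HTSeq and the build hg38. Versions, the annotation and any use of strand were not stated in the labels or notes used here. Summary rows stayed out of library sizes (43.7% to 48.7% of counts on no feature, 2.36% to 3.14% ambiguous, 7.67% to 11.6% not unique).

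Counts of all genes were fitted with edgeR 4.0.16 in R 4.3.3 (filterByExpr with a minimum count of 10, TMM, all 9 libraries in 1 quasi-likelihood fit with 6 residual degrees of freedom), with p-values adjusted by Benjamini-Hochberg over 16796 genes and a threshold of 0.05. Intervals hold 95% confidence. CPM are scaled by TMM. Alternatives used DESeq2 1.42.0, limma 3.58.1, library size alone, no filter, only the groups compared, a replicate block and left-out libraries. The fit was tested on simulated counts. Gene models were GENCODE release 29 on GRCh38, and promoters RefSeq's.

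The members and lists were chosen with earlier results of these data known. Named were, per comparison, the 6 MRPL and 6 MRPS genes with the smallest p where over 12 passed, otherwise the 3 of each, the 3 highest and 3 lowest fold changes, the 5 highest and 5 lowest levels in control, the MRPS18 paralogs, MRPS30, MRPS36, genes left out, and up to 3 genes per other list.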

Additional observations from a re-analysis of the deposited data

How the results depend on the processing

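In rescue against knockdown-labelled cells the median of the 76 mRNAs stayed below 0 in every alternative, but with knockdown-labelled replicates 1 and 2 left out 36 of 76 estimates were above 0 and the MRPL median was 0.00087. The count of 25 calls was 6 with library size alone, 47 with no filter on low counts and 0 with only the groups compared in the fit. In these fits 1.37%, 4.07% and 0.0183% of all genes fell. By DESeq2 the count was 34 and by limma 25, where 8.64% and 5.19% of all genes fell. At an adjusted p under 0.01 the count was 3. No share of all genes is given at that threshold, so this count cannot be set against the background. At the main threshold the count was 1 to 64 as single libraries were left out. It was 10, 3 and 64 without knockdown-labelled replicate 1, 2 or 3, where 1.35%, 0.558% and 20.4% of all genes fell. It was 18, 16 and 22 without control replicate 1, 2 or 3, where 2.6%, 2.44% and 3.24% fell. It was 1, 4 and 3 without rescue replicate 1, 2 or 3, where 0.249%, 0.753% and 0.649% fell. The median of -0.56 was -0.27 with library size alone and -0.022 with knockdown-labelled replicates 1 and 2 left out, and -0.70 to -0.45 without single libraries. Library size alone moved the median of all genes to -0.21 in knockdown-labelled against control cells and to 0.24 in rescue against knockdown-labelled cells, and relative to it the members lay at 0.33 and -0.51, beside 0.39 and -0.56 with TMM. For knockdown-labelled against control cells 0 genes passed. With no filter 13 rose, against 2.09% of all genes. By DESeq2 9 rose, and 0 to 53 rose without single libraries. The median of 0.41 was 0.13 with library size alone, -0.16 with replicates 1 and 2 left out and 0.25 to 0.55 without single libraries. For rescue against control cells 0 passed, 2 by DESeq2, 6 with only the groups compared and 0 to 11 without single libraries. With knockdown-labelled replicates 1 and 2 left out, 7 fell and 0 rose, against 1.89% and 3.38% of all genes. That fit kept all rescue and control libraries.

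Whether replicate numbers pair the libraries was checked by the correlation of deviations from the group means. It lay between -0.355 and 0.0784 for same-numbered libraries and between -0.162 and 0.269 for differently numbered ones. No pairing was seen, but with 3 libraries a group this check cannot show that there was none. With the replicate block 0, 8 and 0 genes passed in knockdown-labelled against control, rescue against knockdown-labelled and rescue against control cells. All 8 fell, and 1.3% of all genes fell in that fit.

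With library size alone 17 of the 76 estimates were above 0 in rescue against knockdown-labelled cells, beside 2 with TMM, and 52 in knockdown-labelled against control cells, beside 68. Of the genes named by the rule for each comparison, these changed sign. In knockdown-labelled against control cells, library size alone gave MRPS18A -0.19 and MRPS18C -0.024, and leaving out replicates 1 and 2 gave MRPL41 -0.59, MRPL18 -0.048, MRPS18A -0.14 and MRPS36 -0.53. As single libraries were left out, MRPL38 ran from -0.36 to 0.15 and MRPS18A from -0.053 to 0.13. In rescue against knockdown-labelled cells, library size alone gave MRPS25 0.21 and MRPS18A 0.036, and leaving out knockdown-labelled replicates 1 and 2 gave MRPL23 1.21, MRPS25 0.069 and MRPS36 0.46. As single libraries were left out, MRPL38 ran from -0.19 to 0.32, MRPS25 from -0.099 to 0.0074 and MRPL46 from -0.13 to 0.57. In rescue against control cells MRPS36 ran from -0.19 to 0.000298 and MRPL41 from -0.14 to 0.28. The causes were not tested. With 3 libraries a group, a p that misses the threshold does not show that values did not differ, and the lowest genes, such as MRPS28 with 2 to 18 counts per library, are the least precise.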
